A study of Homo sapiens with 3 samples.

Results

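The genes for the proteins of the cytosolic ribosome were taken as those gene names that begin with RPL or RPS and a digit, together with RPLP0, RPLP1, RPLP2 and RPSA. The S6 kinase genes, the RPS4Y names, names with a hyphen and pseudogene names were left out, which gave 86 of the 23284 listed names. RNA-seq was carried out on 293T cells, a human embryonic kidney line, that were transfected with a plasmid for dCas9-VP64, in which a Cas9 without nuclease activity carries the VP64 transcriptional activator to the DNA sites its guide matches. Cells of all 3 conditions received dCas9-VP64, and they differed in the guide RNA plasmid, which carried a mock sgRNA, sgL1ASP #1 or sgL1ASP #3. Both sgL1ASP guides target the 5′ UTR of the LINE-1 (L1) retrotransposon to activate its antisense promoter, at different sites of the element. Each condition was sequenced as 1 library, and differences are therefore given as descriptions with no test between replicates. Plasmids were introduced by lipofection, and the share of transfected cells behind each library was not analysed here. Because every library is bulk RNA, a change in the mix of cells and a change in RNA per cell cannot be told apart. All values are FPKM as the authors deposited them, that is, read fragments scaled to the exon length of a gene and to the size of the library. Where 3 values follow each other, they are in the order mock, sgL1ASP #1 and sgL1ASP #3.

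The 86 names include 76 core subunit genes, 46 for the large 60S subunit and 30 for the small 40S subunit. They also include 8 paralog names that end in L or L1 and code for close relatives of a core protein. The other 2, RPL7L1 and RPS19BP1, fit the naming rule but code for a relative of RPL7 and for a partner of RPS19 that are not counted as subunits here. The genes of RPS30 and RACK1, listed as FAU and GNB2L1, fall outside the naming rule. Of the 86 names, 82 had a mean FPKM of at least 1 over the 3 libraries, and comparisons below rest on those 82 beside the 12830 of all genes at that level.

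The ribosome translates messenger RNA into protein, its small subunit decoding the message and its large subunit joining the amino acids. Each subunit needs most of its proteins in equal numbers, the stalk proteins RPLP1 and RPLP2 being an exception, and a growing cell gives a large part of its messenger RNA to them. The messages of most ribosomal protein genes begin with a C followed by a run of pyrimidines, the 5′ terminal oligopyrimidine (TOP) motif, through which mTOR and LARP1 control their translation. Many of the genes have also left processed pseudogenes across the genome and host small nucleolar RNAs (snoRNAs) in their introns.

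The starts of 11 of these genes are printed to show the TOP motif in genes whose levels are described below. Each line gives 30 bases, 10 before and 20 from the RefSeq transcription start of GRCh38.p14, 5′ to 3′. Capitals mark the unbroken run of C and T that includes the first transcribed base, where the run has at least 5 bases and a C within 2 bases of the start.
RPL37A (chr2:216498834-216498863, plus strand): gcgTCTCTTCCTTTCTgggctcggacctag
RPL38 (chr17:74203668-74203697, plus strand): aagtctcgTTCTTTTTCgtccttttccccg
RPS4X (chrX:72277229-72277258, minus strand): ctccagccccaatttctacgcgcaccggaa
RPS24 (chr10:78033853-78033882, plus strand): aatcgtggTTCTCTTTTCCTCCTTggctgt
RPS29 (chr14:49598691-49598720, minus strand): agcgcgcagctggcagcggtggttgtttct
RPL22 (chr1:6199576-6199605, minus strand): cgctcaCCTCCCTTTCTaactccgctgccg
RPL22L1 (chr3:170870176-170870205, minus strand): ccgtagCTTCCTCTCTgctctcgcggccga
RPL26 (chr17:8383174-8383203, minus strand): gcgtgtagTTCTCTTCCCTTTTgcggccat
RPL26L1 (chr5:172958719-172958748, plus strand): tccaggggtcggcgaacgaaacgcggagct
RPS27 (chr1:153990752-153990781, plus strand): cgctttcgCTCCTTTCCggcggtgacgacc
RPS27L (chr15:63157458-63157487, minus strand): gatgccgagcgcagatcgcttgcagcttgc

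Of the 62 core subunit genes with a RefSeq start, 44 (71.0%) had such a run on the strand that reads as the message. That compares with 2548 of all 27305 starts (9.33%) and 6 of 67 mitochondrial ribosomal protein genes (8.96%). Of the 25 listed genes known for TOP messages that are not members, 17 had a start, and the run was present in 12 of these (70.6%). RPS4X and RPS29 lacked it at the annotated base. RPL22 and RPL22L1 both carried it, whereas RPL26 and RPS27 carried it and their paralogs RPL26L1 and RPS27L did not. A missing run says only that these letters are not at the annotated base. Among core genes with a mean FPKM of at least 1, the median level was 1650.1 FPKM for the 43 with a run and 837 FPKM for the 18 without.

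Ribosomal protein genes were among the most abundant messages of every library. Their summed FPKM was 139659, 150993 and 143869, which made up 22.5%, 22.8% and 21.4% of the total. They held 50, 49 and 50 of the 100 highest places in these libraries. A mean FPKM of at least 100 was reached by 72 of the 86 names, compared with 861 of all 23284. The 10 highest members made up 36.1%, 36.2% and 35.8% of the members' sum.

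The total that these shares refer to moved with small noncoding RNA names. The 1620 such names took 13.2%, 16.01% and 18.6% of the FPKM sum. Without them the members' share was 25.9%, 27.2% and 26.2%, highest in sgL1ASP #1. From the spacing of the lowest values the depth came to about 10400000, 10300000 and 8700000 reads. Counting errors below rest on these estimates and cover counting error only.

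RPL37A, a zinc finger protein of the large subunit, was the most abundant member. It had 8135, 8671 and 8328 FPKM. RPL38, a small 60S protein, followed with 5503, 6323 and 6112 FPKM. Both had their lowest value in mock.

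RPS4X, the X-linked copy of the 40S protein S4, had 5655, 5983 and 5646 FPKM. RPL11, which binds the 5S ribosomal RNA and the p53 regulator MDM2, had 5048, 5414 and 4816 FPKM. RPL8, a protein near the peptidyl transferase centre, had 4893, 5189 and 5017 FPKM. In these 3 genes the highest value was that of sgL1ASP #1, and the order of mock and sgL1ASP #3 varied.

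RPL27, a 60S protein, had 4602, 5009 and 4668 FPKM. RPL36 had 4497, 5260.1 and 4318 FPKM, a range wider than those of RPL37A, RPL38, RPS4X, RPL11, RPL8, RPL27, RPS6 and RPL18. RPS6, the 40S protein phosphorylated by the S6 kinases, had 3771, 4039 and 3685 FPKM. RPL18 of the 60S subunit closed this group with 3628, 3869 and 3963 FPKM. RPL18 was highest in sgL1ASP #3, and RPL27, RPL36 and RPS6 were highest in sgL1ASP #1.

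**Figure D1:**
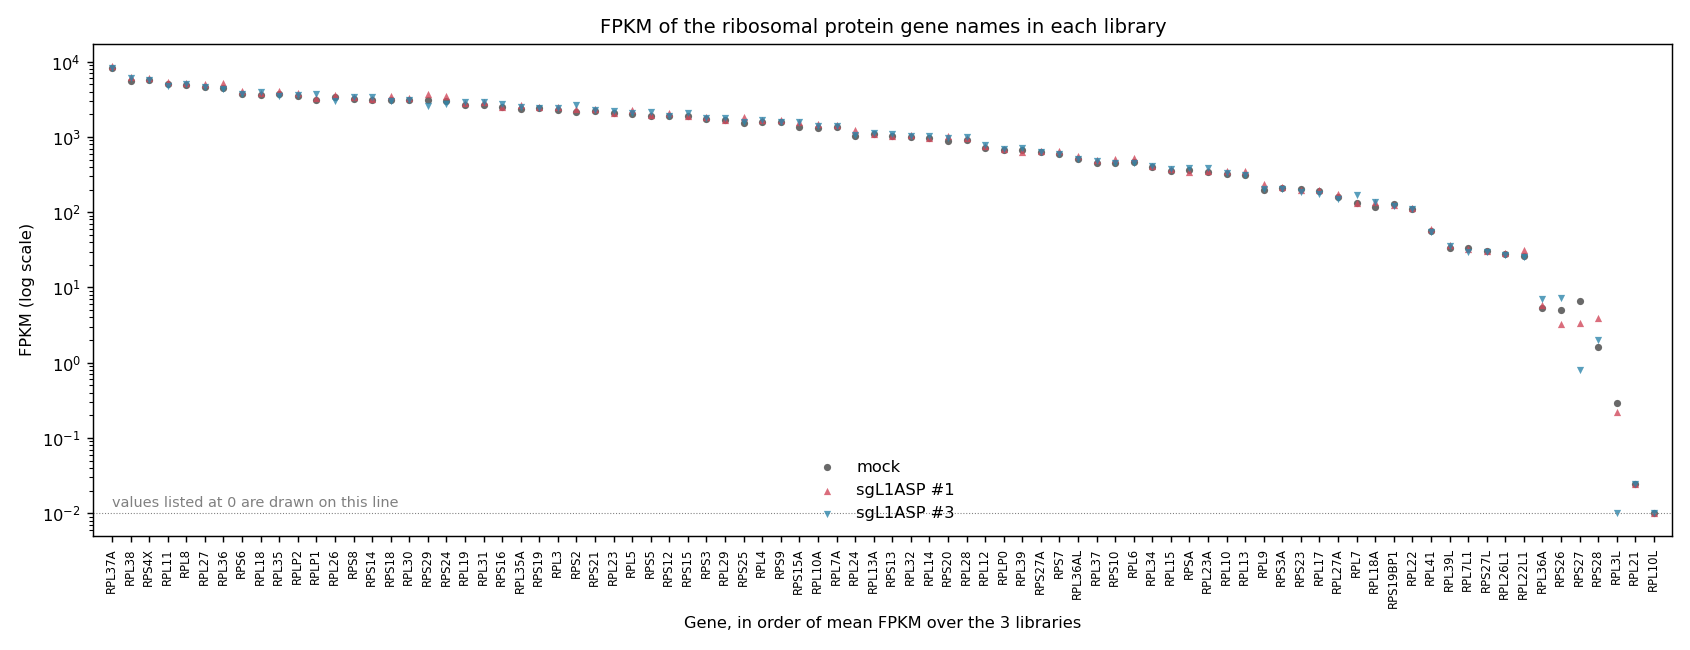
FPKM (log scale) of 84 of the ribosomal protein gene names in the mock, sgL1ASP #1 and sgL1ASP #3 libraries, with genes ordered by their mean. The 3 points of most genes lie on each other from RPL37A at a mean of 8378 FPKM to RPL22L1 at 27.6, and spread apart in RPL36A, RPS26, RPS27, RPS28 and RPL3L. Values listed at 0 are drawn on the dotted line.

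The levels of the core genes were far from equal, although most of their proteins are used in equal numbers. A mean FPKM over 1000 was found for 45 of the 76 core genes, 25 lay between 100 and 1000, and 6 lay under 100. The summed FPKM of the 60S genes was 1.52, 1.53 and 1.53 times that of the 40S genes, for 46 and 30 names.

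The low end was occupied by genes whose sequence recurs in the genome. Along the coding part of each gene's transcript with 100 bases on either side, every 75-base window, the read length, was looked up on both strands of GRCh37 outside the gene's own locus. The share of windows with an exact second copy was under 20% in 36 core genes, whose median level was 2807 FPKM, from 403 for RPL34 to 8378 for RPL37A. In the 14 core genes with 20% to 50% the median was 1312 FPKM. In the 26 with 50% or more it was 347 FPKM, from 0.025 for RPL21 to 2364 for RPS2. All 6 core genes under 100 FPKM were in the last class. Across the 76 core genes, Spearman's rho between the share of recurring windows and the mean FPKM was −0.80, a description over genes that share the same 3 libraries. How the reads with several matches were counted is not given in the sources used here, and its part in these levels was not tested.

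RPL21, a 60S protein, had every window elsewhere, at 31 loci, and 133 annotated pseudogenes. Its FPKM was 0.025 in each library, lower than that of any other core gene. RPS27, a zinc finger protein of the 40S subunit, had 94.6% of its windows elsewhere. RPS28 had 88.8%, RPL36A 86.2% and RPS26, which sits at the messenger RNA exit site, 78.6%. These 4 genes had mean FPKM of 3.59, 2.50, 6.04 and 5.17. RPL41, the shortest ribosomal protein with a coding length of 75 bases, had 57.2% of windows elsewhere and 57.0, 60.3 and 54.8 FPKM. A high share did not always go with a low level, since RPL39, at the peptide exit tunnel, had 98.3% of windows elsewhere and 672, 636 and 716 FPKM.

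Directions in what follows are those of the FPKM as deposited. Setting the libraries to equal FPKM sums instead lowers the log2 difference from mock of every gene by about 0.094 with sgL1ASP #1 and 0.12 with sgL1ASP #3, so that positive differences smaller than these turn negative.

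The first comparison asked whether the ribosomal protein genes differed between sgL1ASP #1 and mock. Most were slightly higher with sgL1ASP #1, in 72 of 82 genes, against 50.3% of all genes with a mean FPKM of at least 1. With equal sums 41 of the 82 were higher, against 24.96% of all genes. Their median difference in log2(FPKM + 0.1) was 0.093 (interquartile range 0.041 to 0.14), or 6.69%, compared with 0.00085 over all genes at that level. Among genes with a mean FPKM of at least 100, 65 of 72 members were higher against 66.4% of all such genes, and with equal sums 37 of 72 were, against 24.04%. The median over these 72 members was 0.094, and over the 639 other protein-coding genes at that level it was 0.025.

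Few members were far from mock. Beyond 1.2-fold, 3 of the 82 genes were higher with sgL1ASP #1 (background 6.93%) and 2 were lower (7.51%). Beyond 1.5-fold there was 1 higher (1.76%) and there were 2 lower (1.79%), all with a mean FPKM under 10. Among the 72 abundant members, 2 were over 1.2-fold higher against 4.07% of all abundant genes, and 0 were over 1.2-fold lower against 2.32%. That background holds small noncoding RNA names, and among the 639 abundant protein-coding genes that are not members 5 (0.782%) were over 1.2-fold higher and 2 (0.313%) lower.

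RPS29, a small zinc finger protein of the 40S subunit on chr14:50037702-50065882 (GRCh37, minus strand), was the abundant member farthest above mock with sgL1ASP #1. It had 3058, 3740.5 and 2601 FPKM. The log2 difference of sgL1ASP #1 from mock was 0.29, which was 10.9 times the counting error estimated from the depth. The values of the guides lay on opposite sides of mock.

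RPL9, a 60S protein, had 196, 237 and 202 FPKM, a log2 difference of 0.27 for sgL1ASP #1. RPL24, at the bridge between the subunits, had 1044, 1244 and 1056 FPKM and a difference of 0.25. In both genes sgL1ASP #1 stood above the other libraries, which lay close to each other.

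RPS28 had 1.64, 3.88 and 1.97 FPKM, so that sgL1ASP #1 exceeded mock by 1.19 on the log2 scale. That difference was 1.30 times its counting error, with about 3.54 reads estimated in mock. RPS27 had 6.62, 3.36 and 0.797 FPKM, a log2 difference of −0.96 for sgL1ASP #1, and RPS26 had 5.02, 3.25 and 7.25 FPKM, a difference of −0.61. These were 1.60 and 1.12 times the counting error. The genes past 1.5-fold were thus those with few estimated reads and recurring sequence.

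The largest decreases among members with a mean FPKM of at least 10 were small. RPSA, the 40S protein also known as the laminin receptor, had 366, 342 and 392 FPKM, a log2 difference of −0.10 for sgL1ASP #1. RPL39 had a difference of −0.079. RPS19BP1, the RPS19 partner, differed by −0.054 and had 128, 124 and 122 FPKM. Next came RPL7L1 with −0.052 and 33.7, 32.5 and 29.9 FPKM. None of these reached 1.2-fold.

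The second comparison set sgL1ASP #3 against the same mock library, so its differences are not independent of the first. Here 55 of 82 members were higher, against 50.4% of all genes. With equal sums these were 16 of 82 and 20.8%. The median log2 difference was 0.052 (interquartile range −0.014 to 0.10), or 3.65%, compared with 0.0015 over all genes. Of the 72 abundant members 51 were higher, against 66% of all abundant genes, and with equal sums 13 were, against 16.3%. The median over these 72 was 0.055, and 0.033 over the other protein-coding genes at that level.

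Beyond 1.2-fold, 4 members were higher with sgL1ASP #3 (background 7.08%) and 1 was lower (7.71%). Beyond 1.5-fold 0 were higher (1.75%) and 1 was lower (2.05%), which was RPS27. Of the 72 abundant members 2 were over 1.2-fold higher (4.65%) and 0 were over 1.2-fold lower (2.44%), while of the 639 other protein-coding genes 5 (0.782%) were higher and 1 (0.156%) was lower.

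RPS2, a 40S protein near the messenger RNA entry on chr16:2012059-2014842 (GRCh37, minus strand), was highest with sgL1ASP #3. It had 2124, 2340.2 and 2629 FPKM. The log2 difference of sgL1ASP #3 from mock was 0.31, or 21.2 times the counting error. RPS2 had 60.8% of its windows at 12 other loci.

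RPL7, a 60S protein, had 134, 134 and 171 FPKM, a log2 difference of 0.35 for sgL1ASP #3. Its windows recurred elsewhere for 92.9%. RPL36A had 5.29, 5.79 and 7.03 FPKM, a difference of 0.40 that was 0.849 times its counting error. RPS26 was higher than mock by 0.52 with sgL1ASP #3 and lower with sgL1ASP #1. All 4 genes above 1.2-fold had most of their windows elsewhere.

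Below mock, RPS27 had a log2 difference of −2.91 with sgL1ASP #3, on 1.74 estimated reads in that library. RPS29 had −0.23. RPL26, which binds the p53 message, had 3389, 3662 and 2980.4 FPKM and a difference of −0.19. RPL7L1 had −0.17 and RPS23, at the decoding centre, −0.13, with 201, 200.2 and 183 FPKM. Apart from RPS27, none of these passed 1.2-fold.

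The guides were also set against each other. With sgL1ASP #1, 58 of 82 members were higher than with sgL1ASP #3, against 6283 of all 12830 genes at that level. The members' median log2 difference was 0.052, compared with −0.0027 over all genes. With a mean FPKM of at least 100, 50 of 72 members were higher, against 300 of the 639 other protein-coding genes. Counts with equal sums were not made for this pair. Beyond 1.2-fold 7 were higher with sgL1ASP #1 (background 7.45%) and 3 lower (7.25%). Beyond 1.5-fold 2 were higher (1.96%) and 1 lower (1.82%), which were RPS27, RPS28 and RPS26.

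RPS29 differed most among abundant members, by 0.52 on the log2 scale, or 17.8 times the counting error. RPS24, a 40S protein mutated in Diamond-Blackfan anaemia, had 2986, 3459.9 and 2729.9 FPKM, a difference of 0.34 between the guides. RPL26 differed by 0.30 and RPL36 by 0.28. In these 4 genes mock lay between the guides.

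RPL22L1 differed by 0.27 at 1.30 times its counting error. In the opposite direction RPL7 differed by −0.35 and RPL36A by −0.27. Counting errors leave out the spread between cultures, which 1 library per condition does not show.

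The subunits were then taken apart, with no test between them. Against mock, the 45 measured 60S genes had a median log2 difference of 0.096 with sgL1ASP #1 and 0.069 with sgL1ASP #3. The 30 measured 40S genes had 0.078 and 0.041. With sgL1ASP #1, 43 of the 45 60S genes and 24 of the 30 40S genes were higher than mock, and with sgL1ASP #3 these were 35 and 19. With equal sums they were 24 and 14 with sgL1ASP #1, and 9 and 7 with sgL1ASP #3. Of all genes with a mean FPKM of at least 1, 50.3% and 50.4% were higher than mock as deposited. With equal sums these shares were 24.96% with sgL1ASP #1 and 20.8% with sgL1ASP #3.

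The 3 stalk proteins, which recruit the elongation factors, were higher than mock with both guides as deposited. With equal sums 1 of 3 was higher, beside the shares of all genes just given. RPLP0 had 671, 682 and 691 FPKM, RPLP1 3115, 3336 and 3689.5 FPKM, and RPLP2 3546, 3780.2 and 3563 FPKM. RPLP1 had its log2 difference of 0.24 with sgL1ASP #3 and 0.099 with sgL1ASP #1. None of the 3 passed 1.2-fold in any pair.

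The 13 members with known roles outside the ribosome had medians of 0.051 with sgL1ASP #1 and 0.018 with sgL1ASP #3, and 0 of the 13 passed 1.2-fold against mock. Over all genes 6.93% were above and 7.51% below that limit with sgL1ASP #1, and 7.08% and 7.71% with sgL1ASP #3. Those shares include many genes of low level. Among the 639 other protein-coding genes with a mean FPKM of at least 100 they were 0.782% and 0.313%, and 0.782% and 0.156%. RPL5, which joins RPL11 in binding MDM2, had 1994, 2257 and 2084 FPKM, a log2 difference of 0.18 for sgL1ASP #1. RPL23, another MDM2 binder, had 2075, 2095 and 2178 FPKM. The 5S partner RPL5 was highest in sgL1ASP #1 as RPL11 was, and RPL23 was highest in sgL1ASP #3.

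RPS3, which also acts in DNA repair, had 1717, 1833 and 1779 FPKM. RPS14, the gene of the 5q deletion syndrome, had 3095, 3177.5 and 3357 FPKM, and RPS19, the gene most often mutated in Diamond-Blackfan anaemia, had 2425, 2513 and 2455. In all 3 mock was lowest, by log2 differences of at most 0.12.

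RPL10, a late joining 60S protein, had 323, 347 and 327 FPKM. RPL13A, which can leave the ribosome to silence inflammatory messages, had 1081, 1105 and 1134 FPKM. RPS27A, made as a fusion with ubiquitin, had 640.2, 651 and 636 FPKM. RPS27A spanned the narrowest range of these, and its value with sgL1ASP #3 was under that of mock.

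Genes mutated in Diamond-Blackfan anaemia were counted as a group from a textbook list, of which 17 of 18 were measured. Their median log2 difference from mock was 0.13 with sgL1ASP #1 and 0.018 with sgL1ASP #3, beside 0.093 and 0.052 for the members as a whole. The group holds RPS26, RPS27, RPS28 and RPS29. With sgL1ASP #1 these gave its 2 genes over 1.2-fold higher (11.8% of the 17, against 6.93% of all genes) and its 2 lower (11.8% against 7.51%). The differences of RPS26, RPS27 and RPS28 were 1.12, 1.60 and 1.30 times their counting error. With sgL1ASP #3, 1 gene of the group was higher (5.88% against 7.08%) and 1 was lower (5.88% against 7.71%).

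Related genes of translation gave a setting for these values. The 76 mitochondrial ribosomal protein genes, which serve another ribosome, had medians of 0.0025 with sgL1ASP #1 (39 above mock) and 0.0075 with sgL1ASP #3 (41 above mock). The 37 measured translation factors had 0.051 and 0.024. The 60 genes of ribosome assembly had 0.0093 and −0.028, with 34 and 20 genes above mock. With equal sums the medians of these 3 lists lay under 0 with both guides, at −0.043 and −0.096 for the translation factors.

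The 24 measured TOP genes that are not members, elongation factors among them, had 0.079 with sgL1ASP #1 and 0.035 with sgL1ASP #3. The 17 measured genes listed as regulators had 0.013 and −0.015. That list holds MYC, MTOR and LARP1, but also MDM2, ZNF622 and NACA, of which NACA is also among the TOP genes. Past 1.2-fold against mock there were 0 translation factors, TOP genes or regulators with either guide. The shares of all genes, and the lower shares of other abundant protein-coding genes, are given above. With equal sums the TOP genes had −0.015 and −0.085. These medians share the mock library and carry no test.

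Of the ribosomal proteins outside the naming rule, FAU had 1124, 1135 and 1138 FPKM, and GNB2L1 had 4916, 5088 and 5032. Both were higher than mock with both guides as deposited and lower than mock with equal sums. Core genes with and without a TOP run had nearly equal medians against mock, 0.092 and 0.10 with sgL1ASP #1 and 0.043 and 0.032 with sgL1ASP #3.

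Ribosomal protein genes are short, so their differences were set beside those of other abundant protein-coding genes of the same coding length. Under 300 bases the median with sgL1ASP #1 was 0.12 in 6 members and 0.049 in 44 other genes. From 300 to 600 bases it was 0.098 in 44 members and 0.040 in 170 others. From 600 to 1200 bases it was 0.083 in 20 members and 0.027 in 220 others. With sgL1ASP #3 the order was reversed in the class with the most members. From 300 to 600 bases the 44 members had 0.025 and the 170 other genes 0.050. Under 300 bases the members had 0.076 and the others 0.026, and from 600 to 1200 bases 0.061 and 0.037.

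The sign of the members' median against mock depended on how the libraries are scaled. The members' FPKM sum was 8.12% over mock in sgL1ASP #1 and 3.01% over mock in sgL1ASP #3, while the sum of the small noncoding RNA names was 29.9% and 53.5% over mock. When every library was set to the same FPKM sum, the members' median became −9.5e-05 with sgL1ASP #1 and −0.068 with sgL1ASP #3. That scaling moved the median of all genes to −0.092 and −0.12.

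With equal sums after leaving out the small noncoding RNA names, the members had 0.048 and 0.025 and all genes −0.044 and −0.024. Scaling to the median ratio of expressed genes gave 0.094 and 0.048. Its factors were 0.9995 for mock, 0.9994 for sgL1ASP #1 and 1.002 for sgL1ASP #3, so it could change little. Relative to the median of all genes with a mean FPKM of at least 1, the members stood at 0.093 with sgL1ASP #1 and 0.050 with sgL1ASP #3 as deposited, and at 0.092 and 0.049 with equal sums. The median of all genes with a mean FPKM of at least 100, a level nearer to that of the members, was 0.032 and 0.034 as deposited and −0.061 and −0.084 with equal sums.

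Paralogs are copies of a core gene, and some of them replace its protein in certain tissues. RPL7L1, which is not counted as a subunit here, was set beside RPL7 in the same way. RPL22L1, the relative of RPL22, had 25.99, 31.1 and 25.7 FPKM. RPL22, an RNA-binding 60S protein, had 111, 114 and 109.8 FPKM. The paralog thus stood at 23.5%, 27.3% and 23.4% of its parent, which had 79.2% of its windows elsewhere, so that this ratio is uncertain.

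RPL39L, known from testis and cancer cells, had 33.8, 36.8 and 35.2 FPKM, or 5.04%, 5.79% and 4.91% of RPL39. RPL26L1 had 28.2, 28.8 and 26.7 FPKM and stayed under 1% of RPL26, at 0.834%, 0.787% and 0.896%. RPL7L1 stood at 25.2%, 24.2% and 17.5% of RPL7, whose own level was highest in sgL1ASP #3. The parents RPL39 and RPL7 had over 90% of their windows elsewhere, so these ratios are uncertain too.

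In the RPL36A and RPS27 pairs the paralog was the higher gene. RPL36AL had 513, 557 and 502 FPKM against 5.29, 5.79 and 7.03 for RPL36A. RPS27L, a p53 target, had 30.5, 30.8 and 29.3 FPKM, within 1.2-fold of each other, while RPS27 had 6.62, 3.36 and 0.797. RPL36AL had 9.01% of its windows elsewhere and RPS27L 0%, against 86.2% and 94.6% in the parents.

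The paralogs of other tissues were near or at 0. RPL3L, the muscle form of RPL3, had 0.288 and 0.219 FPKM in mock and sgL1ASP #1 and was listed at 0 with sgL1ASP #3, while RPL3 had 2306, 2462 and 2445. RPL10L, the testis form of RPL10, was listed at 0 in every library. RPL3L and RPL10L had 0% of their windows elsewhere.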

How the data were processed

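Per the labels and the study's methods, total RNA was made into TruSeq stranded mRNA libraries and sequenced in 75-base single-end mode, and reads were mapped to hg19 with TopHat2 2.0.13, Bowtie2 2.2.3 and SAMtools 0.1.19. The authors calculated the deposited FPKM per gene name with Cuffdiff (Cufflinks 2.2.1), 1 library per condition. The gene annotation, the scaling between libraries and the handling of reads with several matches are not given in the sources used here. Value columns of no sample numbered 0.

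The members, gene lists and tests were chosen with earlier results of these data known. Differences are on the log2(FPKM + 0.1) scale, where changes of low genes come out too small, for genes with a mean FPKM of at least 1, and were counted past 1.2-fold and past 1.5-fold. The genes named are, apart from a few items not reported here, the 10 highest members, the 5 largest rises and falls for each guide, members past 1.2-fold in any pair, members under a mean FPKM of 1, the paralog pairs, members with roles outside the ribosome, and snoRNAs inside members with at least 10 FPKM in 1 library. RPL41, RPLP0, RPLP1, RPLP2, RPL34 and genes outside the members were added as examples of their groups after their values were seen.

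GENCODE 44 lifted to GRCh37, the sequence of hg19, placed 85 of the 86 names, and RefSeq gave starts for 68. Depth was estimated from the lowest FPKM values of genes with 1 transcript of over 1000 bases, and reads per gene from its coding length. Alternatives were pseudocounts of 1 and 0.01, other filters on low values, 3 other scalings, and subsets of the members. The script that takes the medians was tested on simulated data with known shifts, and no difference between libraries has a test. Software was Python 3.11.15, pandas 2.3.3, NumPy 2.4.6, matplotlib 3.10.9 and SciPy 1.17.1.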

Additional observations from a re-analysis of the deposited data

How the results depend on the processing

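No paired analysis was possible because a condition holds 1 library, and no library could be left out in turn for the same reason. Leaving aside subsets that removed none of the 82 genes, 96 values under the other settings stayed within 0.05 of a median or 1.5 times of a count, sum or ratio, 14 moved further and 5 changed sign. Of the values under settings chosen after seeing the data, 7 stayed and 13 moved. Setting the libraries to equal FPKM sums moved the members' median log2 difference from mock to −9.5e-05 with sgL1ASP #1 and −0.068 with sgL1ASP #3, the 60S median to 0.0029 and −0.050, and the 40S median to −0.015 and −0.079. It left 1 member over 1.2-fold higher with sgL1ASP #1 and 2 with sgL1ASP #3, and put 4 over 1.2-fold lower with sgL1ASP #3. Equal sums without small noncoding RNA names left 1 member over 1.2-fold higher with sgL1ASP #1. They took the members' median from 0.093 to 0.048 with sgL1ASP #1 and from 0.052 to 0.025 with sgL1ASP #3. Both count as within 0.05, a limit near the size of the medians themselves, so a median that stayed within it can still have fallen far. With a pseudocount of 1, 1 member was over 1.5-fold lower with sgL1ASP #1. Without a filter on low values, 2 were over 1.2-fold and 2 over 1.5-fold lower with sgL1ASP #3, since RPL3L then counted.

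At a mean FPKM of at least 10 there were 0 members past 1.5-fold in either direction against mock, 0 over 1.2-fold lower, and 2 over 1.2-fold higher with sgL1ASP #3. Leaving out members with a coding length under 300 bases, chosen after seeing the data, left 1 over 1.2-fold higher, 1 over 1.2-fold lower, 0 over 1.5-fold higher and 1 over 1.5-fold lower with sgL1ASP #1, and 0 over 1.2-fold and 0 over 1.5-fold lower with sgL1ASP #3. Leaving out members with 50% or more of windows elsewhere, also chosen after seeing the data, left 1 over 1.2-fold higher and 0 lower, and 0 past 1.5-fold, with sgL1ASP #1, and 0 past either limit with sgL1ASP #3. Fewer genes were counted in each of these subsets. Counting error limits RPS26, RPS27, RPS28 and RPL36A, which had between 1.74 and 21.7 estimated reads per library.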

Other observations

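Names of ribosomal protein pseudogenes and snoRNAs lie outside the 86 genes. There were 27 pseudogene names, of which 10 had at least 1 FPKM in every library and 5 were listed at 0 in every library. In the order mock, sgL1ASP #1 and sgL1ASP #3, their sum was 912, 989 and 966 FPKM, equal to 0.653%, 0.655% and 0.671% of the members' sum. RPL23P8 had 416, 448 and 479 FPKM, RPL19P12 had 254, 279 and 250.045 FPKM, and RPSAP58 had 195, 212 and 187 FPKM, beside 366, 342 and 392 for RPSA. Among names with a hyphen, RPS10-NUDT3, the readthrough of RPS10 and its neighbour, had 3.97 FPKM in mock, was listed at 0 in sgL1ASP #1 and had 2.98 in sgL1ASP #3.

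Introns of the members hold snoRNAs, which guide the modification of ribosomal RNA. Of 40 snoRNA names with a single annotated locus in introns of 22 members, 24 were listed at 0 in every library and 16 had at least 10 FPKM in at least 1 library. These snoRNAs are 64 to 151 bases long. SNORD100 in RPS12 (chr6:133137941-133138016, GRCh37) had 12439.7, 6301 and 22454 FPKM, while its host had 1916, 2099 and 1911. SNORD21 in RPL5 was listed at 0 in mock and had 1009 FPKM in sgL1ASP #1 and 244 in sgL1ASP #3, and SNORD58C in RPL17 had 1659, 672 and 1597. SNORD32A in RPL13A had 1087 FPKM in mock and was listed at 0 with both guides. The values of these 4 snoRNAs differed between libraries by more than those of their hosts. Because FPKM is scaled to length, a few reads can give a large value in names this short. The reads behind the snoRNA values were not estimated, so neither their levels nor these differences can be told from counting error. A further 11 (SNORD83A, SNORD83B, SNORD16, SNORD15A, SNORD15B, SNORA65, SNORA45, SNORA7A, SNORA52, SNORA10 and SNORA6) reached at most 807 FPKM, for SNORD83A in RPL3 with sgL1ASP #1.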
